A study of Homo sapiens with 11 samples.

Results

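Cytosolic ribosomal protein genes were followed in liver tumours of a human pancreatic cancer line with and without knockdown of NPTX1, the gene of the secreted neuronal pentraxin 1. The genes were picked by a rule on names, set with earlier results of these data known. It took RPL or RPS, a number and at most a short suffix, together with RPLP0, RPLP1, RPLP2, RPSA and FAU. The rule left out the RPS6K kinases and the pseudogenes, and found 84 of the 23434 rows of the authors' deposited table, 52 for the large and 32 for the small subunit. RPL36AL, which also encodes a ribosomal protein, has a name outside the rule and is given apart.

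The tumours came from PANC1 LM3, a liver-metastatic derivative (generation 3) of PANC1, an established human line of pancreatic ductal carcinoma. There were 3 libraries of cells with the NPTX1 hairpin shNPTX1_3, 4 of cells with the NPTX1 hairpin shNPTX1_4 and 4 of cells with the control hairpin shCTRL, whose genotype is labelled WT. In each group 500000 cells were put into the spleen on day 1, and RNA was purified from the liver tumours on day 21. All groups thus carry a hairpin construct. The libraries are titled biological replicates, but the labels give neither the host animal nor whether each library came from its own animal. The p-values thus reflect the spread of these libraries alone, and whether that is spread between animals is not known. The authors' deposited table holds a mean normalized count per group and 1 DESeq2 comparison, all 7 knockdown libraries against the 4 of shCTRL. All levels given are these means by the authors. Since values per library were not analysed here, means carry no SD and overlap between groups is not known. The error given for a change is the standard error (SE) of the log2 fold change. In bulk tumour RNA, fewer cells of a type and less RNA per cell cannot be told apart. NPTX1 itself was lower with both hairpins, at an authors' mean of 46.5 normalized counts in shNPTX1_3 and 38.4 in shNPTX1_4, against 103 in shCTRL, in the authors' deposited table (log2 fold change -1.26, SE 0.24, DESeq2 adjusted p = 3.65e-06).

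A ribosome holds a large subunit, where peptide bonds are made, and a small subunit, where the messenger RNA is decoded. Nearly every ribosomal protein is present in a single copy per ribosome, and the acidic proteins RPLP1 and RPLP2 of the stalk, which recruits elongation factors, are exceptions. The messenger RNAs of these proteins begin with a run of pyrimidines, the terminal oligopyrimidine (TOP) tract, through which mTORC1 and the RNA-binding protein LARP1 control their translation and stability together. Because the products assemble in fixed proportion, these genes are usually described as a coordinately expressed set.

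A sequence that many of the genes share lies at their transcription start. The 30 bases around the start, from 15 bases before it, are shown for 7 genes with large rises (RPL39, RPS16, RPL10, RPL36A, RPS4X, RPS3 and RPL24), for the genes whose hairpins stood furthest apart (RPL28 and RPL31) and for RPL3 and RPL19, which lay close to no change. They are from RefSeq on GRCh38.p14, 5′ to 3′ on the strand of the gene, with each CTTT in capitals. For each gene the RefSeq start nearest to its GENCODE release 29 start was taken. The 2 starts lay 587 bases apart for RPL28, 574 for RPL31, 148 for RPL3, 64 for RPL24 and 52 for RPS4X. For the other genes shown they lay at most 28 apart. A window without CTTT may thus miss the start in use. RPL3 and RPL19 lack it here, though 29 of 45 windows of genes that did not pass held it.
RPL39 (chrX:119791616-119791645, minus strand): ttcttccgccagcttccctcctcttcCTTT
RPS16 (chr19:39435935-39435964, minus strand): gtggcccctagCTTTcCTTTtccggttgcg
RPL10 (chrX:154398362-154398391, plus strand): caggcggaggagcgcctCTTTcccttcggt
RPL36A (chrX:101390996-101391025, plus strand): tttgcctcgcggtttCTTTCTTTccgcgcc
RPS4X (chrX:72277234-72277263, minus strand): gcagtctccagccccaatttctacgcgcac
RPS3 (chr11:75399503-75399532, plus strand): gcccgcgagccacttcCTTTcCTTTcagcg
RPL24 (chr3:101686704-101686733, minus strand): ttcccatgattctctCTTTCTTTtcgccat
RPL28 (chr19:55385917-55385946, plus strand): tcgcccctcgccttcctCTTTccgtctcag
RPL31 (chr2:101002274-101002303, plus strand): acaatccttcgcgctcttcCTTTccaactt
RPL3 (chr22:39319609-39319638, minus strand): gtaaggccgaccggcctctaccggcgggat
RPL19 (chr17:39200268-39200297, plus strand): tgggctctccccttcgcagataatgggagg

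Of the 84 genes, 68 had an entry in the RefSeq promoter table. CTTT stood on the strand of the gene in 45 of these 68 windows (66.2%), against 12.2% of the 27305 start windows of all genes in that table. On the opposite strand the same letters stood in 3 of 68 windows, or 4.41%, against 9.95% of all windows. Among the ribosomal protein genes that rose, 16 of 22 windows held CTTT, against 29 of 45 windows of those that did not pass the test. The order was the other way for CCTTT, which contains CTTT: 6 of 22 that rose and 19 of 45 that did not pass held it on the strand of the gene, against 3.59% of all windows. CCGGAA, the core of many ETS factor motifs, was sought in the 300 bases from 250 before to 50 after the start. It was present in 28 of 68 genes on the strand of the gene, against 9.97% of all genes in that table. On the other strand it was present in 16 of 68, against 10.4%. Among the 13012 genes of that table with an adjusted p here, the shares with CCGGAA were higher, at 14.5% and 15.6%. In the start windows of these 13012 genes, CTTT stood in 10.4% on the strand of the gene and 7.01% on the other. CCTTT stood in 3.36% on the strand of the gene. The share with CCGGAA on the strand of the gene was 8 of 22 among the genes that rose and 20 of 45 among those that did not pass. A match describes these letters in the window and says nothing of binding.

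Ribosomal protein genes rose or did not pass the test, and the rises were small. Of the 83 genes with an adjusted p per the authors' deposited table, 26 rose and 0 fell at a DESeq2 adjusted p under 0.05, while 1 had a lower level at an unadjusted p under 0.05. That is 31.3% of the genes tested, against 15.8% of all 18426 named genes that were called higher and 11.5% called lower. The median log2 fold change was 0.19, against -0.01 over all genes tested, and the values per the authors' deposited table ran from -0.48 to 0.76. With the groups' totals of normalized counts made equal (total-count scaling), which lowers every log2 fold change by 0.066, 14 rose and 1, RPL28, fell, against 11.6% of all genes called higher and 16.4% called lower. The 26 genes include those just inside the threshold, such as RPS6 and RPL9 with DESeq2 adjusted p-values of 0.0357 and 0.0356 per the authors' deposited table, and RPS27A and RPL35A lay just outside it, at 0.0571 and 0.0636.

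**Figure D1:**
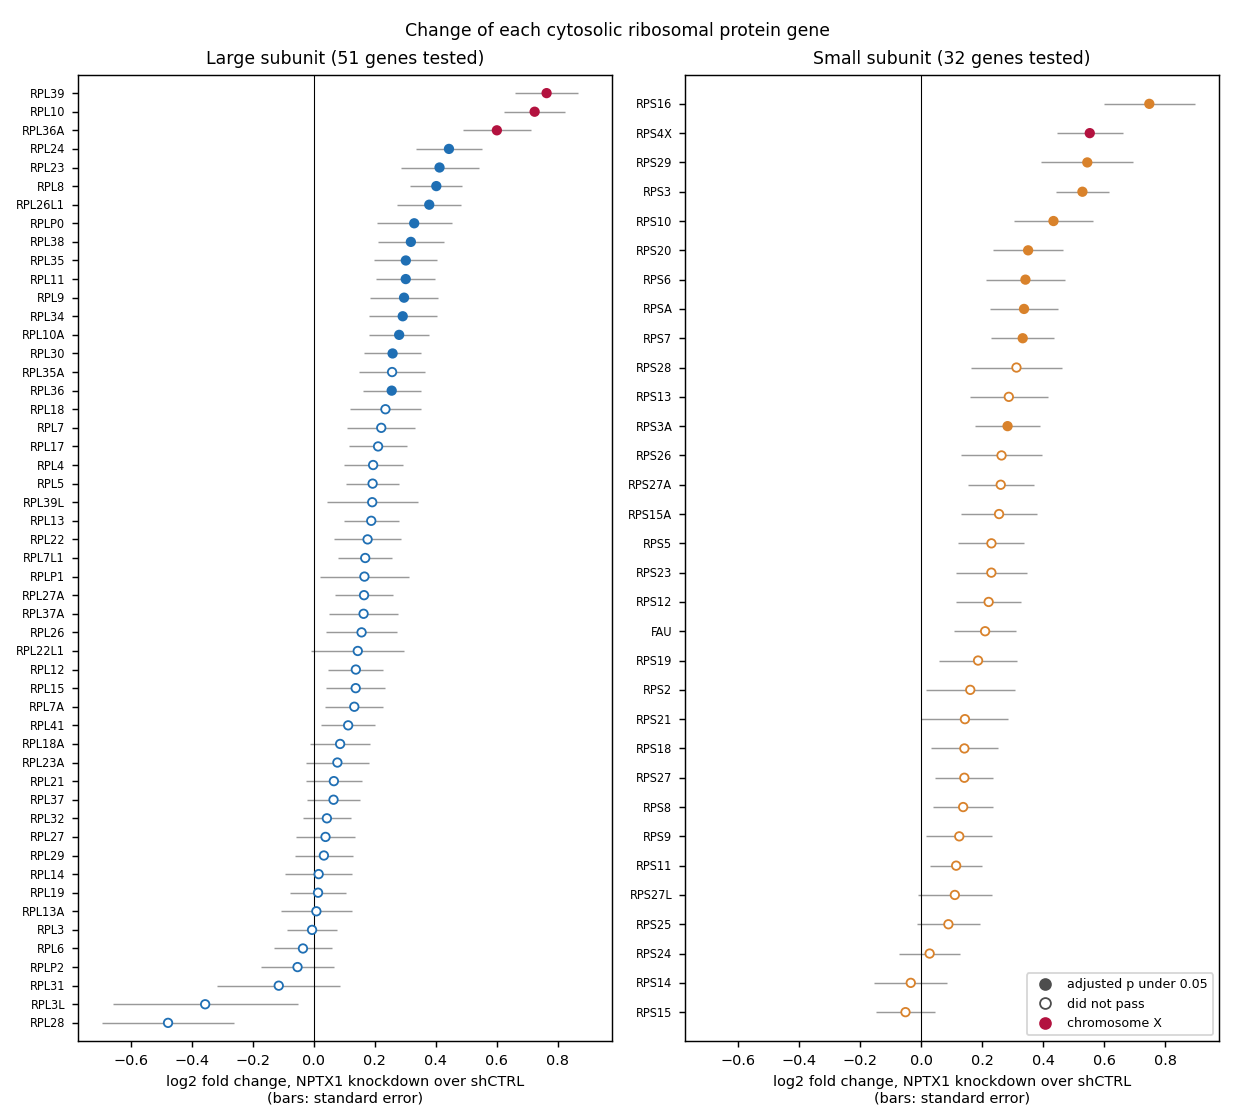
Log2 fold change of each ribosomal protein gene, the 7 knockdown libraries over the 4 shCTRL libraries, with the SE of the authors' deposited table as bars, the large subunit on the left and the small subunit on the right. Filled points passed the test and red points lie on chromosome X. Values run from -0.48 for RPL28 to 0.76 for RPL39, and 75 of the 83 points lie above 0, or 66 under total-count scaling.

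Proteins of the large subunit were led by RPL39, a very small protein in the wall of the exit tunnel. RPL39 had an authors' mean of 4838 normalized counts in shNPTX1_3 and 4791 in shNPTX1_4, against 2837 in shCTRL, in the authors' deposited table. The hairpins gave nearly the same level, and the gene rose 1.70-fold per the authors' deposited table (log2 fold change 0.76, SE 0.10, DESeq2 adjusted p = 1.1e-11). RPL10, which sits near the peptidyl transferase centre and joins the subunit late in its maturation, had mean levels of 6020 and 5603 normalized counts in shNPTX1_3 and shNPTX1_4 and 3500 in shCTRL per the authors' deposited table. It rose 1.65-fold per the authors' deposited table (log2 fold change 0.72, SE 0.10, DESeq2 adjusted p = 3.8e-11). RPL36A, a protein next to the exit site of transfer RNA, had mean levels of 6326 and 7270 normalized counts in the 2 hairpin groups and 4532 in shCTRL, a log2 fold change of 0.60 per the authors' deposited table (SE 0.11, DESeq2 adjusted p = 2e-06).

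RPL24, a protein that reaches across to the small subunit, had a mean of 9197 normalized counts in shNPTX1_3 and 8845 in shNPTX1_4, against 6619 in shCTRL, in the authors' deposited table. Its log2 fold change there was 0.44 (SE 0.11, DESeq2 adjusted p = 5.80e-04 per the authors' deposited table). RPL23, at the face between the subunits, had mean levels of 5384, 5131 and 3939 normalized counts in shNPTX1_3, shNPTX1_4 and shCTRL per the authors' deposited table. RPL8, which lines the peptidyl transferase region, had 5064, 5078 and 3840 in the same order, with log2 fold changes of 0.41 for RPL23 and 0.40 for RPL8 per the authors' deposited table (SE 0.13 and 0.09, DESeq2 adjusted p = 0.00787 and 4.76e-05). In each of these genes both hairpin groups were above shCTRL and lay within 0.1 of each other on the log2 scale. The other large-subunit genes that rose were RPL26L1, RPLP0, RPL38, RPL35, RPL11, RPL9, RPL34, RPL10A, RPL30 and RPL36, with log2 fold changes from 0.38 down to 0.26 per the authors' deposited table. Of these 10, only RPL26L1 kept its call under total-count scaling.

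Of the 3 stalk proteins 1 rose. RPLP0, the base of the stalk, had mean levels of 16649 and 19947 normalized counts in shNPTX1_3 and shNPTX1_4 and 14755 in shCTRL per the authors' deposited table (log2 fold change 0.33, SE 0.12, DESeq2 adjusted p = 0.0310, a call lost under total-count scaling). RPLP1 had mean levels of 3915, 5408 and 4250 normalized counts in shNPTX1_3, shNPTX1_4 and shCTRL, and did not pass (log2 fold change 0.17, DESeq2 adjusted p = 0.414 per the authors' deposited table). RPLP2 had 8653, 10378 and 10002 normalized counts in the same order per the authors' deposited table (log2 fold change -0.05, DESeq2 adjusted p = 0.779). For all 3 proteins the mean was higher in shNPTX1_4 than in shNPTX1_3. RPL4, the large-subunit gene with the highest authors' mean, had 25998, 28533 and 23987 normalized counts in shNPTX1_3, shNPTX1_4 and shCTRL and did not pass (log2 fold change 0.19, DESeq2 adjusted p = 0.119 per the authors' deposited table). RPL7, with the third highest mean after RPLP0, had 16417, 15927 and 13847 in the same order (log2 fold change 0.22, DESeq2 adjusted p = 0.127 per the authors' deposited table). RPL5 and RPL11, which bind the 5S ribosomal RNA and can inhibit MDM2, had log2 fold changes of 0.19 and 0.30, and of the pair RPL11 passed the test (DESeq2 adjusted p = 0.0864 and 0.0108 per the authors' deposited table).

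The small subunit was led by RPS16, whose tail reaches the transfer RNA in the decoding centre. RPS16 had a mean of 24446 normalized counts in shNPTX1_3 and 25817 in shNPTX1_4, against 15020 in shCTRL, in the authors' deposited table, and was the small-subunit gene with the highest mean. It rose 1.68-fold per the authors' deposited table (log2 fold change 0.75, SE 0.15, DESeq2 adjusted p = 1.33e-05). RPS4X, a protein of the body of the small subunit, had 9793 and 11366 normalized counts in shNPTX1_3 and shNPTX1_4 and 7291 in shCTRL per the authors' deposited table (log2 fold change 0.55, SE 0.11, DESeq2 adjusted p = 8.87e-06). RPS29, a small zinc-binding protein of the head, had 1213, 1282 and 859 in the same order (log2 fold change 0.54, SE 0.15, DESeq2 adjusted p = 0.00253 per the authors' deposited table).

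RPS3, at the entry of the messenger RNA channel and also known from DNA repair, had mean levels of 9948 and 9896 normalized counts in shNPTX1_3 and shNPTX1_4 and 6873 in shCTRL per the authors' deposited table. Its log2 fold change of 0.53 carried the smallest error among the small-subunit genes that rose (SE 0.09, DESeq2 adjusted p = 6.27e-08 per the authors' deposited table). RPS10, of the head, had 7176, 6972 and 5226 normalized counts in shNPTX1_3, shNPTX1_4 and shCTRL, and RPS20, also of the head, had 8995, 8892 and 7008 per the authors' deposited table. Both hairpin groups were above shCTRL in these genes, with log2 fold changes of 0.43 for RPS10 and 0.35 for RPS20 (DESeq2 adjusted p = 0.00568 and 0.0118 per the authors' deposited table). RPS6, the substrate of the S6 kinases, RPSA, also known as a laminin receptor, RPS7 and RPS3A rose by 0.34, 0.34, 0.33 and 0.28 per the authors' deposited table, and of these 4 only RPS7 kept its call under total-count scaling. RPSA had 6254, 6699 and 5151 normalized counts in shNPTX1_3, shNPTX1_4 and shCTRL, and RPS3A had 15269, 15078 and 12456 per the authors' deposited table. RPS24 and RPS3A are the small-subunit genes of highest mean after RPS16, and RPS24, with 16860, 17858 and 17095 in the same order, lay close to no change (log2 fold change 0.03, SE 0.10, DESeq2 adjusted p = 0.864 per the authors' deposited table). FAU, which encodes a ubiquitin-like protein fused to a ribosomal protein, had 3555, 3641 and 3116 normalized counts in shNPTX1_3, shNPTX1_4 and shCTRL and did not pass (log2 fold change 0.21, DESeq2 adjusted p = 0.105 per the authors' deposited table).

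**Figure D2:**
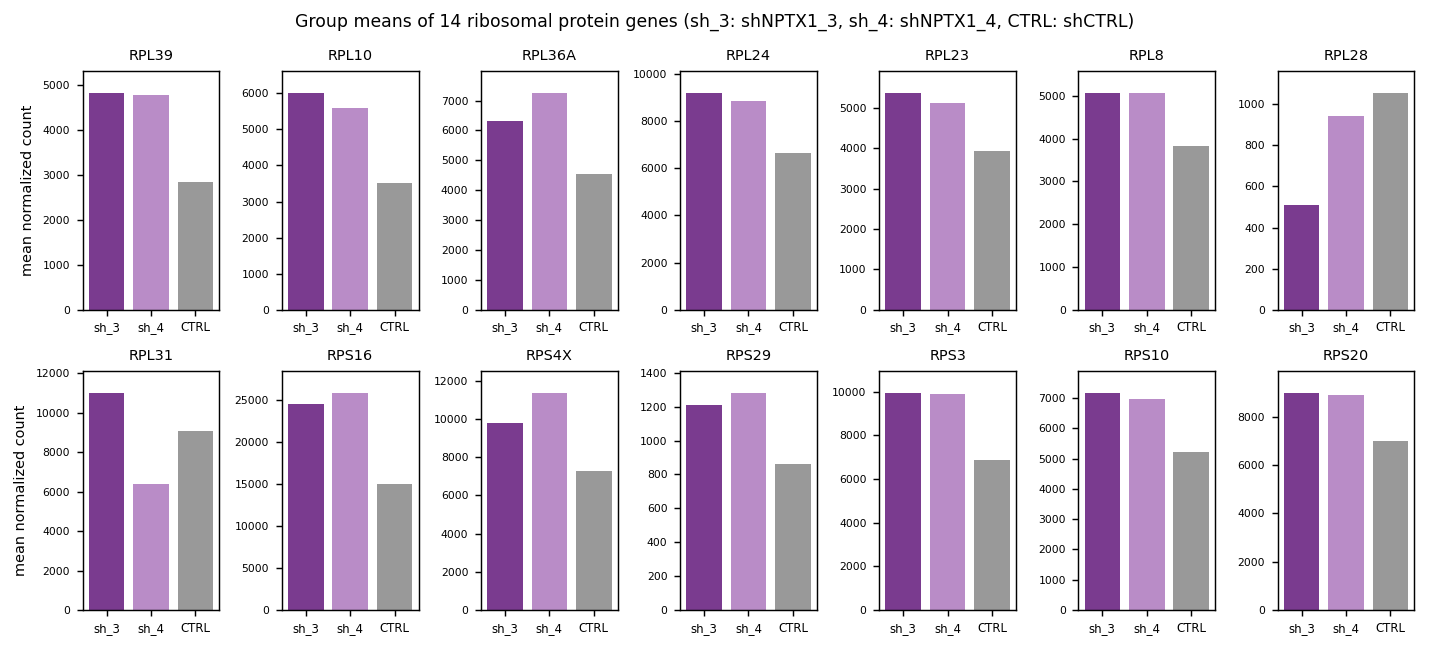
The authors' mean normalized count of 14 ribosomal protein genes in shNPTX1_3, shNPTX1_4 and shCTRL, on axes that start at 0 and differ between genes, without error bars as library values were not analysed here. In 12 of the genes both hairpin bars stand above shCTRL, as for RPS16 at 24446 and 25817 against 15020, while RPL28 is lower with both and RPL31 lies on either side.

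Members of both subunits rose. For the large subunit 16 of 51 genes tested rose (31.4%), and for the small subunit 10 of 32 (31.3%, DESeq2 adjusted p under 0.05 per the authors' deposited table), with no gene lower in either, while at an unadjusted p under 0.05 there were 1 and 0 lower genes. Under total-count scaling the counts were 7 of 51 (13.7%) and 7 of 32 (21.9%), with RPL28 lower. Of all genes tested, 15.8% were higher by DESeq2 per the authors' deposited table and 11.6% under total-count scaling. Of genes at 1000 normalized counts or more these shares were 25.7% and 18%. Under that scaling 13.7% for the large and 21.9% for the small subunit lay on either side of this 18%. Each of the 2 shares rests on 7 calls, and without the scaling they were nearly equal, at 31.4% and 31.3%. The median log2 fold change was 0.17 for the large and 0.23 for the small subunit, and the difference between the subunits was not tested. Summed over the genes of a subunit, the authors' means gave 352099 and 360981 normalized counts for the large subunit in shNPTX1_3 and shNPTX1_4 and 314768 in shCTRL, from the authors' deposited table. For the small subunit the sums were 229971 and 238748 in the knockdown groups and 193335 in shCTRL, from the authors' deposited table. The ratio of the sums, large over small, was thus 1.53 in shNPTX1_3 and 1.51 in shNPTX1_4, against 1.63 in shCTRL. The gap was narrower without RPS16, where the ratio was 1.71 and 1.70 in shNPTX1_3 and shNPTX1_4, against 1.77 in shCTRL. All 84 genes together took 2.91% of the normalized counts in shNPTX1_3 and 3.10% in shNPTX1_4, against 2.71% in shCTRL.

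Proteins that also have a bacterial counterpart and those without one were both represented among the rises. Of the 33 universal proteins 13 rose, and of the 44 others, with the variant paralogues set aside, 12 rose, with 0 lower in either by DESeq2 per the authors' deposited table and 0 and 1 lower at an unadjusted p under 0.05. These shares were 39.4% and 27.3%, against 15.8% of all genes and 25.7% of genes at 1000 normalized counts or more. Under total-count scaling 7 of the 33 (21.2%) and 6 of the 44 (13.6%) rose, against 11.6% and 18%. Their median log2 fold changes were 0.23 and 0.17, and the difference between the classes was not tested. In the large subunit 8 of 18 universal and 7 of 28 other genes rose, and in the small subunit 5 of 15 and 5 of 16. Under total-count scaling these counts were 3 of 18 and 3 of 28 in the large subunit and 4 of 15 and 3 of 16 in the small subunit.

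Chromosome X carries 4 of the 84 genes, RPL39, RPL10, RPL36A and RPS4X, and all 4 rose, also under total-count scaling. They rank among the 5 largest log2 fold changes of the 83 tested, where RPS16 on chromosome 19 is the other. Their log2 fold changes ran from 0.55 to 0.76 per the authors' deposited table, with a median of 0.66, against 0.19 for the 79 tested autosomal members. The levels of the 4 genes summed to 26977 normalized counts in shNPTX1_3 and 29030 in shNPTX1_4, against 18161 in shCTRL, from the authors' deposited table. The other genes of chromosome X moved in the same direction: 206 of 435 at 2 CPM or more were higher (47.4%) and 4.6% lower by DESeq2 per the authors' deposited table, or 43.9% and 8.28% under total-count scaling, with a median log2 fold change of 0.31, against 18.7% and 0.02 for 13115 other genes of the autosomes. The part of chromosome X in the rise of these 4 genes was not tested. Among the autosomal members 22 of 79 rose (27.8%). Under total-count scaling 10 rose (12.7%), close to the 13.3% of the other autosomal genes that were then higher.

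**Figure D3:**
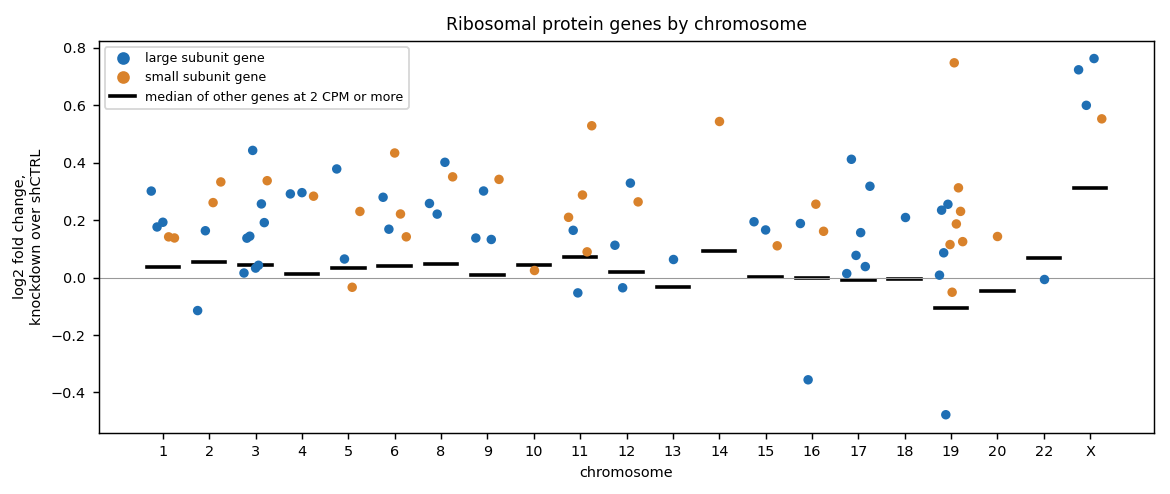
Log2 fold change, knockdown over shCTRL, of the 83 ribosomal protein genes tested, by chromosome, with a black bar for the median of the other genes of that chromosome at 2 CPM or more. The 4 genes on X lie between 0.55 and 0.76 over a bar at 0.31, and RPS16 stands at 0.75 on chromosome 19, where the bar is at -0.11.

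On chromosome 19, which holds 12 of the genes, the other genes went the other way. Of 961 other genes there at 2 CPM or more, 6.24% were higher and 18.8% lower by DESeq2 per the authors' deposited table, and their median log2 fold change was -0.11. The 12 ribosomal protein genes had a median of 0.16, with RPS16 and RPL36 called higher. On chromosomes 4 and 8, 3 of 3 and 3 of 4 members rose, beside 18.5% and 21.1% of the other genes there, whose medians were 0.01 and 0.05. The calls of RPL9, RPL34 and RPS3A on chromosome 4 and of RPL30 on chromosome 8 were lost under total-count scaling, as was that of RPL36 on chromosome 19.

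The nearest measured genes give the same contrast on a finer scale. For each member the 10 nearest genes at 2 CPM or more on each side were taken in the order of GENCODE release 29, with the other genes of the naming rule left out. RPL8, RPS7 and RPL35A had 19, 18 and 13 such neighbours, and the others tested had 20. Around RPL10, 18 of 20 neighbours rose per the authors' deposited table, among them FLNA and IRAK1, each by 0.89, and the median of the neighbours was 0.60, against 0.72 for RPL10. One of these neighbours is the small nucleolar RNA SNORA70, which lies within RPL10. Around RPL39, 15 of 20 rose, with a median of 0.54, and around RPL36A 12 of 20, with a median of 0.41, from the authors' deposited table. The readthrough RPL36A-HNRNPH2, which can share reads with RPL36A, is among these 12. RPS4X differed, with 7 of 20 neighbours higher, 2 lower and a median of 0.12, from the authors' deposited table.

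RPS16 stood above all 20 of its neighbours, and their median log2 fold change was -0.04 per the authors' deposited table. On the side of lower coordinates ACP7, PAK4, LRFN1, SAMD4B, ZFP36 and PLEKHG2 were lower, with PAK4 at -0.38 and ZFP36 at -0.53 per the authors' deposited table. On the other side FCGBP and PSMC4 were higher, by 0.39 and 0.31 per the authors' deposited table, and TIMM50 and SUPT5H, at 0.22 and 0.21, did not pass. RPS29, RPS3 and RPL8 also lay above every one of their neighbours, whose medians were 0.08, 0.10 and 0.02, as did RPL35A and RPL18, which did not pass. RPL8 and RPL35A had fewer neighbours, as given above, and RPL36AL is among those of RPS29. The small nucleolar RNAs SNORD15A and SNORD15B, at 0.14 and 0.43 per the authors' deposited table, are among the neighbours of RPS3. The readthrough RPS10-NUDT3 is among those of RPS10. Over the 79 autosomal members tested, 66 lay above the median of their own neighbours, and the middle of those medians was 0.03, against 0.19 for the members.

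**Figure D4:**
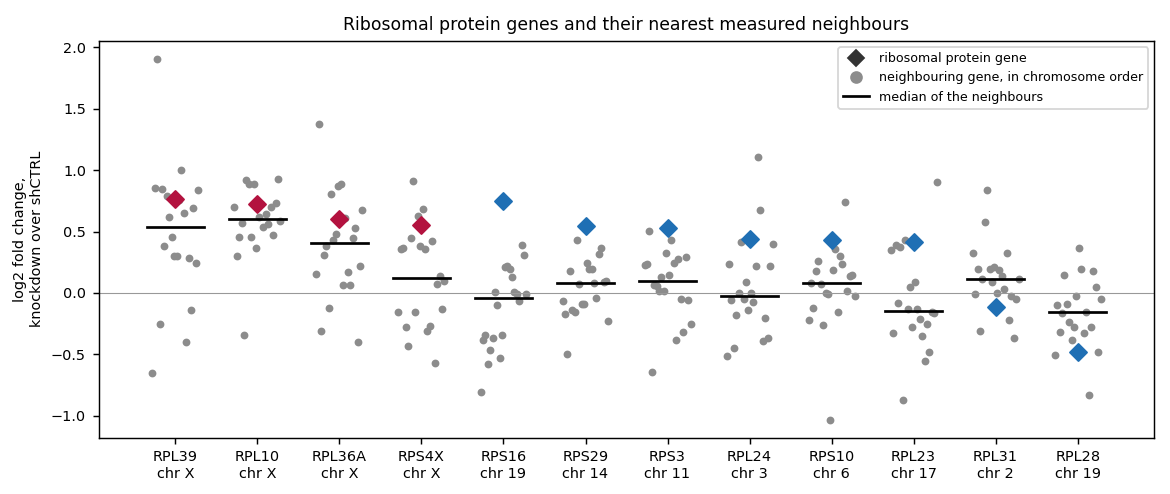
Log2 fold change, knockdown over shCTRL, of 12 ribosomal protein genes (diamonds, red on chromosome X) and of their 20 nearest genes at 2 CPM or more (grey points in chromosome order, black bar at their median). RPS16 at 0.75 lies above all its neighbours, whose bar is at -0.04, while RPL10 at 0.72 lies among neighbours with a bar at 0.60.

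The medians of the hairpins were close to each other in the authors' means, and less so after scaling to totals. On the log2 scale the median ratio of the group means to shCTRL was 0.19 with shNPTX1_3 and 0.23 with shNPTX1_4. In the same order, 69 and 76 of the 83 genes were above shCTRL. With the total of each hairpin group made equal to that of shCTRL, the medians were 0.10 and 0.18. Both ratios use the same shCTRL libraries, and no difference between the hairpins was tested. The widest gaps among genes whose hairpins lay on opposite sides of shCTRL were in RPL31, RPLP1 and RPS21, with RPS2 next. RPL31, a protein near the exit of the tunnel, had a mean of 11022 normalized counts in shNPTX1_3, 6384 in shNPTX1_4 and 9064 in shCTRL per the authors' deposited table, ratios of 0.28 and -0.51. It did not pass (log2 fold change -0.11, DESeq2 adjusted p = 0.710 per the authors' deposited table). RPS21 had 2493, 1946 and 1973 normalized counts in the same order, and RPS2 had 5638, 7207 and 5844, from the authors' deposited table. Neither passed, with log2 fold changes of 0.14 and 0.16 (DESeq2 adjusted p = 0.479 and 0.429 per the authors' deposited table). RPL28, a protein of eukaryotic ribosomes without a bacterial counterpart, was lower with both hairpins but unequally, at 509.9 normalized counts in shNPTX1_3 and 944 in shNPTX1_4, against 1056 in shCTRL, in the authors' deposited table. Its log2 fold change of -0.48 did not pass (SE 0.22, DESeq2 adjusted p = 0.0839 per the authors' deposited table), and passed under total-count scaling. RPL28 and RPL31 carried errors of 0.22 and 0.20, while the median SE of the 83 genes was 0.11.

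These counts can be set beside those of other genes of like length or level. Ribosomal proteins are short, with a median coding length of 453 nt over the 83 genes, against 1434 nt for other genes at 2 CPM or more. Of 1475 other genes with a coding length under 600 nt, 35.7% were higher by DESeq2 per the authors' deposited table and 5.56% lower, with a median log2 fold change of 0.21. The ribosomal protein genes, at 31.3% and 0.19, lay slightly below these other short genes and above the 25.7% of all 4384 genes with an authors' mean of 1000 normalized counts or more. With total-count scaling, 14 of 83 ribosomal protein genes (16.9%) and 26.3% of the other short genes were higher. Of those short genes 8.54% were lower. Of the genes at 1000 normalized counts or more 18% were then higher, so that the share of ribosomal protein genes no longer stood above theirs. Across other genes the log2 fold change fell with coding length (Spearman's rho -0.26 over 12513 genes, which are not independent), and within the 83 ribosomal protein genes rho was -0.03. The part of length in the rise of these genes was not tested.

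Variant paralogues, which stand in for a common ribosomal protein in some tissues or act outside the ribosome, were lower in level than their counterparts per coding length. RPL26L1 rose, with mean levels of 398 and 370.1 normalized counts in shNPTX1_3 and shNPTX1_4 and 295 in shCTRL (log2 fold change 0.38, SE 0.10, DESeq2 adjusted p = 0.00243 per the authors' deposited table). Its counterpart RPL26 did not pass (log2 fold change 0.16, DESeq2 adjusted p = 0.318 per the authors' deposited table). Per 1000 nt of coding length RPL26L1 had 916, 851 and 679 normalized counts in shNPTX1_3, shNPTX1_4 and shCTRL. RPL39L, known from the testis, had 384, 328 and 308 normalized counts in the same order and a log2 fold change of 0.19 (DESeq2 adjusted p = 0.347 per the authors' deposited table), beside 0.76 for RPL39. RPL22L1 had a log2 fold change of 0.14 beside 0.18 for RPL22, RPL7L1 of 0.17 beside 0.22 for RPL7, and RPS27L, a p53-responsive gene, of 0.11 beside 0.14 for RPS27, and none of these 6 passed per the authors' deposited table. In shNPTX1_3, shNPTX1_4 and shCTRL, RPL22L1 had 413, 523 and 433 normalized counts, RPL7L1 had 2585, 2865 and 2446, and RPS27L had 894, 783 and 770.1 (DESeq2 adjusted p = 0.511, 0.148 and 0.528 per the authors' deposited table). RPL3L, a muscle form, had 17.9, 22.2 and 24.9 normalized counts in shNPTX1_3, shNPTX1_4 and shCTRL and did not pass (log2 fold change -0.36, DESeq2 adjusted p = 0.396 per the authors' deposited table), beside -0.01 for RPL3. RPL10L, a form known from the testis, was near 0, at 1.71, 1.04 and 0.11 normalized counts, and had no adjusted p per the authors' deposited table. Outside the naming rule, RPL36AL had a log2 fold change of 0.19 and did not pass (DESeq2 adjusted p = 0.135 per the authors' deposited table).

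Pseudogenes and readthrough genes can share reads with ribosomal protein genes, and several moved differently from their parents. Of 26 ribosomal protein pseudogenes tested, 1 rose (3.85%) and 5 fell by DESeq2 per the authors' deposited table, against 15.8% and 11.5% of all genes. Their median log2 fold change was -0.18. Most were low in level, with a median authors' mean of 67.9 normalized counts, against 6059 for the ribosomal protein genes. RPS16P5 fell, at an authors' mean of 1495 normalized counts in shNPTX1_3 and 1387 in shNPTX1_4, against 2187 in shCTRL (log2 fold change -0.61, SE 0.14, DESeq2 adjusted p = 1.75e-04 per the authors' deposited table), while RPS16 rose. Its mean over all libraries was 7.93% of that of RPS16. RPSAP58 rose, by 0.54 beside 0.34 for RPSA per the authors' deposited table, and its mean was 34.2% of that of RPSA. RPL13AP6, RPL23AP32, RPL23AP53 and RPS15AP10 were the others that fell, by 0.84, 0.58, 0.25 and 0.43 per the authors' deposited table, beside parents that did not pass. RPL36A-HNRNPH2, a readthrough of RPL36A into HNRNPH2, rose by 0.88 on the log2 scale per the authors' deposited table, with 38.6% of the mean of RPL36A, so the reads of the pair are uncertain. RPS10-NUDT3 fell by 1.03 per the authors' deposited table (SE 0.41, DESeq2 adjusted p = 0.0424), with 3.70% of the mean of RPS10.

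Other genes of translation, from lists chosen with earlier results of these data known, rose in part. Of 38 genes of RNA polymerase I and ribosome biogenesis, 13 rose and 0 fell by DESeq2 per the authors' deposited table, with 0 lower at an unadjusted p under 0.05, and a median log2 fold change of 0.18. That is 34.2% higher, against 15.8% of all genes and 25.7% of genes at 1000 normalized counts or more, and under total-count scaling 9 were higher (23.7%), against 11.6% of all genes. SBDS, which helps release EIF6 from the new large subunit, had mean levels of 4824 and 3537 normalized counts in shNPTX1_3 and shNPTX1_4 and 2373 in shCTRL per the authors' deposited table (log2 fold change 0.79, DESeq2 adjusted p = 1.31e-05). DKC1, the pseudouridine synthase of ribosomal RNA, POLR1E, a polymerase I subunit, and EBNA1BP2, a large-subunit assembly factor, rose by 0.61, 0.49 and 0.44 per the authors' deposited table. Nucleolin (NCL) and fibrillarin (FBL) did not pass, with log2 fold changes of -0.08 and -0.06 per the authors' deposited table. Of 32 initiation factor genes tested, 11 rose and 1 fell by DESeq2 per the authors' deposited table, with a median of 0.16. That is 34.4% higher, against 15.8% of all genes, and under total-count scaling 9 were higher and 1 lower. EIF4A2, an RNA helicase, EIF3I, a subunit of the scaffold factor eIF3, and EIF2B2, a subunit of the exchange factor of eIF2, rose by 0.45, 0.42 and 0.42, EIF5 rose by 0.38 and EIF5B, which joins the subunits, fell by 0.31 per the authors' deposited table.

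Of 19 elongation factor and other genes known for TOP messenger RNAs, 2 rose and 1 fell by DESeq2 per the authors' deposited table. That is 10.5% higher, against 15.8% of all genes. Most of the changes were small rises, with 16 above 0 and 3 below. Their median log2 fold change was 0.14, against 0.19 for the ribosomal protein genes and -0.01 over all genes tested. EEF1B2 and EEF1G, both parts of the exchange factor of eEF1A, rose by 0.31 and 0.21 per the authors' deposited table, and neither passed under total-count scaling. PABPC1, the poly(A)-binding protein, had mean levels of 7814 and 10313 normalized counts in shNPTX1_3 and shNPTX1_4 and 14088 in shCTRL per the authors' deposited table, and fell by 0.61 (DESeq2 adjusted p = 0.00148). RACK1, a protein of the small subunit outside the naming rule, did not pass (log2 fold change 0.14 per the authors' deposited table). Of 9 hosts of small nucleolar RNAs, many of them TOP genes, SNHG12 and SNHG5 rose, by 0.39 and 0.38 per the authors' deposited table. That is 22.2% of the list, and 0 fell by DESeq2, with 0 lower at an unadjusted p under 0.05. All 9 hosts lay above 0, with a median log2 fold change of 0.32.

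Of 16 genes of the MYC and mTORC1 axis, 3 rose (18.8%, against 15.8% of all genes) and 3 fell by DESeq2 per the authors' deposited table, or 2 and 4 under total-count scaling, with a median log2 fold change of -0.02. LARP1, the protein that binds the TOP tract, had mean levels of 3754 and 4692 normalized counts in shNPTX1_3 and shNPTX1_4 and 5591 in shCTRL per the authors' deposited table (log2 fold change -0.38, SE 0.10, DESeq2 adjusted p = 0.00204). DEPTOR, an inhibitor in the mTOR complexes, and MAX, the partner of MYC, rose by 0.70 and 0.49 per the authors' deposited table, and RHEB, the activator of mTORC1, rose by 0.34. AKT1S1 and EIF4EBP1, an inhibitor of mTORC1 and a target of it, fell by 0.31 and 0.34 per the authors' deposited table. MYC and MTOR did not pass, with log2 fold changes of 0.13 and -0.06 and DESeq2 adjusted p = 0.433 and 0.437 per the authors' deposited table.

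**Figure D5:**
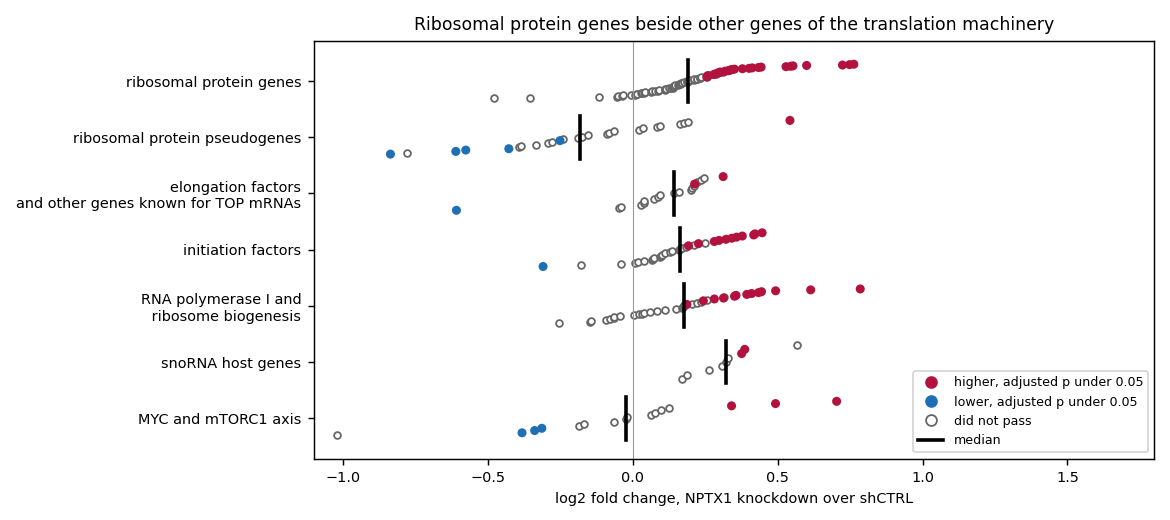
Log2 fold change, knockdown over shCTRL, of the ribosomal protein genes, their pseudogenes and the other translation genes, with filled points for an adjusted p under 0.05 per the authors' deposited table and a black bar at each median. The bar lies at 0.19 for the ribosomal protein genes, at -0.18 for the pseudogenes and at -0.02 for the MYC and mTORC1 axis.

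Keratins of the epithelial tumour cells and 2 of 6 fibroblast markers were higher with knockdown, and hepatocyte markers were low. The shares called higher were 33.3% of the hepatocyte markers tested, 33.3% of the fibroblast markers and 80% of the epithelial markers. Over all genes tested, 15.8% were called higher and 11.5% lower by DESeq2 per the authors' deposited table. In lists this short such shares are coarse. The builds named were hg19 and mm39, and how mouse reads were handled was not given. How far cells of the host are counted under these human gene names is thus not known. Of 11 hepatocyte markers, 6 were tested, APOA1 and TF rose, and the summed authors' means were 202 and 113 normalized counts in shNPTX1_3 and shNPTX1_4 and 105 in shCTRL, with ALB under 1 count in every group, from the authors' deposited table. The 5 leukocyte markers summed to 926 and 762 normalized counts in shNPTX1_3 and shNPTX1_4 and 861 in shCTRL, and the 4 endothelial markers to 419.9 and 366 against 368, with 0 of the 9 called by DESeq2 per the authors' deposited table and 1, lower, at an unadjusted p under 0.05. Of 6 fibroblast markers COL3A1 and LUM rose, the sum being 6415 and 3364 normalized counts in shNPTX1_3 and shNPTX1_4 and 1602 in shCTRL, from the authors' deposited table, while DCN and PDGFRB stayed under 10 counts in every group. COL3A1 made up most of that sum in the knockdown groups, with 5517 and 2247 normalized counts in shNPTX1_3 and shNPTX1_4 and 731 in shCTRL per the authors' deposited table. COL1A1, ACTA2, DCN and PDGFRB did not pass, with log2 fold changes of 0.28, -0.19, 0.71 and -0.31 per the authors' deposited table. Of 5 markers of the epithelial tumour cells KRT7, KRT8, KRT18 and KRT19 rose and EPCAM did not pass, with sums of 56172 and 28832 normalized counts in shNPTX1_3 and shNPTX1_4 and 15915 in shCTRL, from the authors' deposited table. The part of these differences in the rise of the ribosomal protein genes was not tested.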

How the data were processed

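RNA-seq was measured in 11 libraries. Per the submitters' processing notes, STAR 2.7.6a, featureCounts 2.0.0, MultiQC 1.9, DESeq2 1.24 and the builds hg19 and mm39 were used, with no role stated; how strand, annotation and mouse reads were handled was not given in the sources used here. Per the file headers, the authors' deposited table gives a signal (counts divided by size factors, averaged per group), a log2 fold change with its error, a Wald score, and a p-value and adjusted p. The table totals were 19997100, 19323200 and 18734000 normalized counts in shNPTX1_3, shNPTX1_4 and shCTRL; depth per library was not used. Of 23434 rows, 107 without a unique gene name were left out.

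The planned test was this DESeq2 comparison, since counts per library were not analysed here. Calls use an adjusted p under 0.05 over the whole table. CPM is the mean over all libraries relative to the table's total, and 2 CPM is 38.6 normalized counts. Ratios per hairpin used a pseudocount of 1. Total-count scaling subtracted 0.066 from each log2 fold change, with p from the normal distribution and Benjamini-Hochberg adjustment over 18426 genes, tested on simulated data. Chromosomes, gene order and coding lengths are from GENCODE 29 (GRCh38), another build than those notes name, so coordinates are printed for RefSeq sequences only. Python 3.11.15 and pandas 2.3.3 were used.

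The members and lists were chosen with earlier results of these data known. The rule for full values names the 6 largest rises per subunit, the 3 highest means, stalk proteins, RPSA, FAU, variant paralogues and the 3 widest opposite hairpin gaps; RPL3, RPL5, RPL19, RPL28, RPS2, RACK1, NCL, FBL, MYC, MTOR, neighbouring genes and pseudogenes were named after their values were seen.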

Additional observations from a re-analysis of the deposited data

How the results depend on the processing

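Under total-count scaling the called ribosomal protein genes numbered 14, in place of 26, and the 14 were all among the 26; RPL28 became lower. The constant shift of that scaling accounts for this by construction. Setting the median of genes at 2 CPM or more to 0 gave 21 calls and leaving out the variant paralogues 25. Adjustment over all rows with a p gave 26. Alternatives chosen after seeing the data gave 22 calls without the chromosome X members and 25 without RPS16. The median log2 fold change lay between 0.13 and 0.19 over all settings tried. The medians per hairpin, at pseudocounts of 0, 1 and 10, were 0.19 with shNPTX1_3 and 0.23 with shNPTX1_4. With the total of each hairpin group made equal to that of shCTRL, they were 0.10 with shNPTX1_3 and 0.18 with shNPTX1_4. With the 10 genes of highest mean left out of the total, chosen after seeing the data, the share of counts on the ribosomal protein genes was 3.18% in shNPTX1_3, 3.34% in shNPTX1_4 and 2.97% in shCTRL. No paired analysis was possible because the deposited table holds group means, and for the same reason no replicate was left out.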
